A study of Mus musculus with 48 samples.

Results

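Livers of 21-day-old mouse pups whose dams had drunk cadmium were compared with livers of control pups of the same age, across all genes. The comparison takes the 24 of 48 libraries in the series whose titles carry PND21: 12 from the 50 ppm group and 12 from the 0 ppm group, with 6 females and 6 males in each and 1 library per pup. All pups were C57Bl/6J x CAST/EiJ hybrids. Their C57Bl/6J dams had received filtered drinking water with cadmium chloride (CdCl2) at 0 or 50 ppm from an age of 4 weeks, were mated at 9 weeks with sires that had received none, and kept that water until the litter was 10 days old. The livers at day 21 were therefore taken after exposure had ended. All mice ate the purified diet AIN-93G. The other 24 libraries come from newborn livers (day 0) of the same 2 doses and serve here only to compare the effect between ages. The series title links Zac1, the imprinted gene Plagl1, to steatosis, so the comparison asks which genes of growth, lipid and metal handling differ in the liver after exposure in the womb and during suckling. The labels do not tie pups to litters, and the p-values measure spread between pups, not between litters. Sex, the last letter of a library's title, entered the model as a covariate.

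Cadmium is a toxic metal that enters cells through carriers for zinc, manganese and iron and is held in the liver by metallothioneins, small metal-binding proteins. The liver is the main blood-forming organ of the fetus, a role that passes to marrow and spleen around birth. Erythropoietin (Epo) drives the formation of red cells. Its gene, like those of glycolysis, is switched on by hypoxia-inducible factors (HIF), which are broken down when oxygen and iron let the EGLN hydroxylases mark them for VHL. Red cell precursors answer erythropoietin with erythroferrone (Erfe), which lowers hepcidin, the liver hormone that limits iron export into plasma. Plagl1 encodes a zinc finger factor in a network of imprinted genes of fetal growth, most of which are turned down in liver after birth. In the first weeks of life hepatocytes also replace fetal proteins and isozymes with adult ones and take on zonated functions.

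Total counts ranged from 61.4 to 83.8 M per control library (M stands for 1000000 counts) and from 57.5 to 91.4 M per exposed library, with medians of 67.4 and 68.6 M. Scaling factors (TMM) lay between 0.947 and 1.065. CPM below stands for counts per 1000000 counts of the library, scaled by them. Albumin (Alb) took up a median of 9.83% of all counts in control and 9.86% in exposed livers. Of 30 marker genes of pancreas, muscle, fat, gut and kidney, 19 stayed under 0.1 CPM in every library. No pair of libraries of a group matched within sampling noise. In bulk tissue, fewer cells of a type and less RNA per cell cannot be told apart.

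The livers of exposed pups differed from controls in a large share of their genes. Of 17527 genes tested with edgeR's quasi-likelihood test, 4064 (23.2%) rose and 3373 (19.2%) fell at an adjusted p under 0.05, which makes 42.4% in all. The median log2 change over all tested genes was -0.0038. Sizes of rises and falls below are log2 changes, exposed over control, ± SE over the 24 libraries. The SE was back-calculated as the absolute log2 change over the square root of the test's F statistic. It is only a rough guide where a dose group is near 0. Among the rises, 1153 (6.58% of all tested) reached 2-fold, and among the falls 335 (1.91%). In 553 genes (3.16%) all 12 exposed libraries lay above all 12 controls, and in 242 (1.38%) they lay below, 4.54% in all. Protein-coding genes passed in 47.7% of cases, with 3761 rises and 2930 falls. Long noncoding genes passed in 32.8%, and there falls outnumbered rises by 281 to 139.

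The largest rises joined secreted factors with blood cell genes. The 8 largest rises and falls named here averaged 2 CPM or more in the dose with the higher level; scarcer transcripts such as Epo and Erfe are given with their groups. Adm2 (ENSMUSG00000054136), a peptide hormone of the calcitonin family, had 0 counts over the 12 control libraries and 2106 over the exposed, which is at least 672-fold higher. Exposed livers ranged from 0.946 to 5.88 CPM with a median of 2.34 for this gene. Fgf23 (ENSMUSG00000000182), the hormone that makes the kidney excrete phosphate, ranged from 0 to 4.62 CPM with a median of 0.0925 in controls and from 14.4 to 82.3 CPM with a median of 48.2 in exposed livers. Its log2 change was 6.88 ± 0.69 (SE, adjusted p = 4.74e-08), and no exposed library overlapped the controls although control female replicate 40 stood at the top of its group. Bmp8b, a BMP family ligand, rose by 4.92 ± 0.25 (adjusted p = 8.33e-13), and Zdbf2, an imprinted gene, by 4.79 ± 0.36. Both were free of overlap, with medians of 0.307 and 9.01 CPM for Bmp8b and 0.0791 and 2.74 CPM for Zdbf2. The eosinophil granule genes Epx and Prg2 and the red cell membrane gene Rhag complete the 8 largest rises and are described with their lineages.

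The largest falls belonged to genes of the adult hepatocyte. Sult3a1, a sulfotransferase, ranged from 0.236 to 40.7 CPM with a median of 4.85 in controls and from 0.0103 to 0.229 CPM with a median of 0.0419 in exposed livers (log2 change -6.67 ± 0.67, adjusted p = 4.00e-08). Elovl3, a fatty acid elongase, fell from a median of 3.04 to 0.225 CPM (log2 change -4.11 ± 0.62). Ces4a, a carboxylesterase, changed by -3.48 ± 0.37. In these 3 genes every exposed library lay below every control. Scd1, the desaturase that makes oleate, ranged from 94.7 to 2052 CPM with a median of 552 in controls and from 29.9 to 329.6 CPM with a median of 114 in exposed livers (log2 change -2.67 ± 0.52, adjusted p = 0.000249), and its groups overlapped. The other 4 of the 8 were Mup genes, described with the sex-biased genes.

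**Figure D1:**
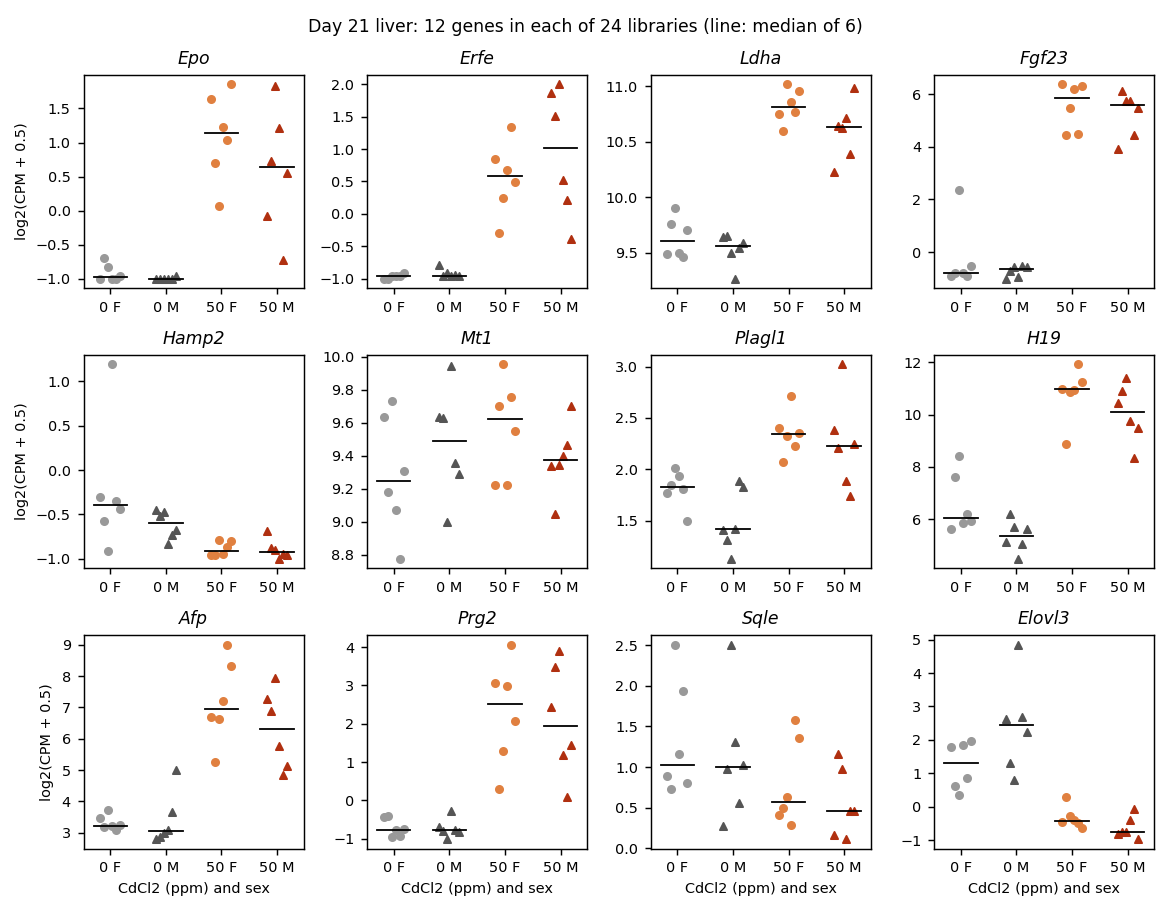
Level of 12 genes in each of the 24 day 21 livers, as log2(CPM + 0.5) on the vertical axis, by CdCl2 dose and sex on the horizontal axis (circles: females, triangles: males, line: median of 6 pups). Fgf23, Erfe, Prg2, Ldha and Elovl3 separate the doses without overlap, Epo, H19, Afp and Plagl1 differ with some overlap, and the Mt1 points of the doses overlap.

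Genes of the oxygen response rose almost as a block. Of 38 tested members of the oxygen and erythropoietin list, 31 rose and 2 fell, against 23.2% and 19.2% of all tested genes, and 5 did not pass. The median log2 change of the list was 0.69 against -0.0038 over all tested genes. Epo (ENSMUSG00000029711) ranged from 0 to 0.118 CPM with a median of 0 in controls and from 0.103 to 3.12 CPM with a median of 1.36 in exposed livers. Its log2 change was 6.33 ± 0.62 (adjusted p = 1.42e-08), and 11 of 12 exposed libraries lay above every control. Epo was low in absolute terms, since the 12 control libraries together held 15 counts of it and the exposed 1291. Kitl, the ligand of the KIT receptor on blood progenitors, rose by 0.88 ± 0.13, while thrombopoietin (Thpo), the platelet hormone that hepatocytes make, stood at 0.21 ± 0.12 (adjusted p = 0.171).

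The oxygen sensors did not move as 1 group. Egln3, a HIF hydroxylase that HIF itself induces, ranged from 11.5 to 20.3 CPM with a median of 12.9 in controls and from 25.2 to 60.8 CPM with a median of 39.8 in exposed livers (log2 change 1.47 ± 0.12, adjusted p = 1.16e-09). Egln1, the main hydroxylase, rose by 0.46 ± 0.05, and Vhl, the ubiquitin ligase subunit that captures hydroxylated HIF, by 0.49 ± 0.09. Hif1a, the HIF-1 alpha subunit, changed by -0.32 ± 0.08 (adjusted p = 0.00150) and Hif1an, its asparagine hydroxylase, by -0.14 ± 0.03, both falls. Epas1, the HIF-2 alpha subunit, Arnt, their partner, and Egln2 did not pass, at log2 changes of -0.01, 0.13 and -0.09.

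All 14 glycolytic HIF targets rose, with a median log2 change of 0.78, and 6 of the 14 separated the doses without overlap, against 3.16% of all tested genes. Ldha, the lactate dehydrogenase A gene, ranged from 615 to 954 CPM with a median of 755 in controls and from 1199 to 2073 CPM with a median of 1701 in exposed livers (log2 change 1.14 ± 0.07, adjusted p = 1.84e-11). Pfkl, the liver form of phosphofructokinase, rose from a median of 61.1 to 212 CPM (log2 change 1.65 ± 0.11, adjusted p = 1.89e-11). Pfkp, the platelet form of the same enzyme, rose from 3.34 to 33.9 CPM, a log2 change of 3.48 ± 0.25. Hk2, the hexokinase of muscle, fat and growing cells, rose from 0.673 to 5.18 CPM (2.92 ± 0.26). Aldoa and Gapdh, which hepatocytes express at high levels, rose by 1.18 ± 0.11 and 0.62 ± 0.08, and the smallest rises were those of Aldoc (0.35 ± 0.11) and Pgk1 (0.36 ± 0.06). The Aldoc call was lost with all 48 libraries in the fit (adjusted p = 0.0904). The 14 genes together summed from 2953 to 3843 CPM with a median of 3136 in controls and from 4391 to 7265 CPM with a median of 5457 in exposed livers.

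Of 13 other HIF targets tested, 12 rose and Ddit4, an mTOR inhibitor, did not pass (log2 change 0.53 ± 0.35, adjusted p = 0.239). Vldlr, a receptor for triglyceride-rich lipoproteins, rose from a median of 2.26 to 12.6 CPM (log2 change 2.67 ± 0.15, adjusted p = 2.50e-12) with no overlap. Ankrd37, a small HIF target, ranged from 1.26 to 5.38 CPM with a median of 2.62 in controls and from 5.92 to 50.2 CPM with a median of 22.1 in exposed livers. Hilpda, an inhibitor of triglyceride breakdown on lipid droplets, rose by 1.81 ± 0.28, and the angiogenic factor Vegfa by 0.66 ± 0.08. Adm, the hormone adrenomedullin, rose by 1.05 ± 0.14 and Ndrg1 by 1.24 ± 0.16. Car9, a HIF-induced carbonic anhydrase, was too low to test with 47 and 77 counts per dose.

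The promoters of these genes were searched for the core of the HIF response element, ACGTG on either strand, in the 250 bases before and 50 after each RefSeq start. The motif was in 10 of 22 promoters of glycolytic targets (45.5%) and in 10 of 19 of the other targets (52.6%), against 19.6% of all 32851 mouse promoters in the table. Below are 100 bases each from Ldha, Hk2 and Aldoa, the 3 glycolytic genes with the smallest p among those whose promoter holds the motif, on the gene's strand, with matches in capitals (RefSeq, GRCm38.p6). The Ldha window is chr7:46845704-46845803 (+ strand), the Hk2 window chr6:82774455-82774554 (- strand), both ending at the base before the start, and the Aldoa window chr7:126799329-126799428 (- strand), ending 75 bases before it. In Ldha a palindromic CACGTG and a further CACGT lie close together.
Ldha: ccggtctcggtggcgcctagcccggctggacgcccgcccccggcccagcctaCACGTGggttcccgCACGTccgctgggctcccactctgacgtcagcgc
Hk2: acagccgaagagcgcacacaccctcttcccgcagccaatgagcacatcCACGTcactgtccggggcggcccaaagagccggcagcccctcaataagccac
Aldoa: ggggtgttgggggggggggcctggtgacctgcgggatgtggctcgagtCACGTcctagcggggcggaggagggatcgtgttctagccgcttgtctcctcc
A match to these letters is a description of the sequence; binding was not measured here.

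Transcripts of red cell precursors were higher in exposed livers, with a median log2 change of 3.40 over membrane genes and 0.67 over haemoglobin and other late genes. Of 12 tested membrane genes 11 rose, 9 of them without overlap. Erythroid genes nearly silent in controls, such as Rhag and Erfe, passed the low-count filter through the exposed libraries. They could only be called higher, so counts of rises and medians are partly set by the filter. Rhag (ENSMUSG00000023926), the Rh-associated glycoprotein, ranged from 0.0154 to 0.345 CPM with a median of 0.0847 in controls and from 0.958 to 7.13 CPM with a median of 2.45 in exposed livers (log2 change 4.87 ± 0.42, adjusted p = 2.22e-09). Slc4a1, the band 3 anion exchanger, rose from a median of 3.54 to 37.3 CPM, Ank1 (ankyrin) from 0.405 to 4.96 CPM and Kel (the Kell antigen) from 0.128 to 2.67 CPM. The summed level of the 12 genes ranged from 8.74 to 19.1 CPM with a median of 10.7 in controls and from 29.9 to 242 CPM with a median of 73.6 in exposed livers. Of the adult globin genes 3 rose: Hba-a1 by 0.55 ± 0.18 (adjusted p = 0.0137), Hbb-bs by 0.67 ± 0.18 and Hbb-bt by 0.86 ± 0.26, and Hba-a2 did not pass (0.63 ± 0.28, adjusted p = 0.0694). Reads of Hba-a1 and Hba-a2, and of Hbb-bs and Hbb-bt, may be split between near-identical copies. Globin genes took up a median of 0.0593% of counts in control and 0.0781% in exposed livers, and the groups overlapped. The embryonic globin genes Hba-x, Hbb-bh1 and Hbb-y had at most 1 count over either dose.

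Erfe (ENSMUSG00000047443), the erythropoietin-induced hormone of red cell precursors, was nearly silent in controls, from 0 to 0.0772 CPM with a median of 0.0155, and ranged from 0.260 to 3.50 CPM with a median of 1.01 in exposed livers. Its log2 change was 6.08 ± 0.49 (adjusted p = 6.51e-10), with no overlap. Of 9 factors of erythroid progenitors 7 rose: Gata1, the master regulator of the lineage, by 4.22 ± 0.46, Nfe2 by 3.98 ± 0.40, Myb by 3.56 ± 0.24 and Tal1 by 1.31 ± 0.14. Klf1, which drives adult globin transcription, stood at 0.05 ± 0.20 (adjusted p = 0.882), and Zfpm1, the GATA1 partner FOG-1, changed by -0.45 ± 0.09, a fall. Haem synthesis and iron uptake genes went both ways, with 4 rises, 5 falls and 3 not passed of 12. Alas2, the erythroid form of the first enzyme of haem synthesis, rose by 1.02 ± 0.19, whereas Urod, Uros and Cpox, later enzymes of the pathway that hepatocytes also use, changed by -0.30, -0.24 and -0.23.

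Genes of the other blood lineages rose too, most of them from levels near 0. As with the erythroid genes, members nearly silent in controls were tested through the exposed libraries and could only be called higher. All 15 tested megakaryocyte and platelet genes rose, 12 without overlap, with a median log2 change of 2.60. The platelet chemokine Ppbp ranged from 0.176 to 0.831 CPM with a median of 0.461 in controls and from 3.39 to 8.99 CPM with a median of 6.08 in exposed livers (log2 change 3.70 ± 0.20, adjusted p = 1.01e-12). Gp1ba, part of the platelet receptor for von Willebrand factor, rose by 3.97 ± 0.29, and Selp (P-selectin) by 1.85 ± 0.14. Vwf itself, made by megakaryocytes and by endothelium, rose from a median of 32.2 to 139 CPM (2.10 ± 0.11).

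All 20 neutrophil genes rose, 13 without overlap, with a median log2 change of 3.98. Granule genes of early precursors and those of mature cells had median log2 changes of 3.97 over 7 and 3.99 over 13 genes. The 7 early genes summed to a median of 1.05 CPM in controls. Those nearly silent there could only be called higher, so the count of rises and the medians are partly set by the filter. Mpo (myeloperoxidase) ranged from 0.220 to 0.866 CPM with a median of 0.553 in controls and from 2.35 to 15.7 CPM with a median of 11.02 in exposed livers (log2 change 3.97 ± 0.32, adjusted p = 1.41e-09). Ngp, a granule protein, rose from a median of 1.14 to 35.5 CPM, and Chil3, a chitinase-like protein, from 0.832 to 20.1 CPM. The list summed from 15.8 to 67.8 CPM with a median of 25.6 in controls and from 68.4 to 326 CPM with a median of 255 in exposed livers.

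Of the blood lineage lists, that of eosinophil and mast cell granule genes had the highest median log2 change. All 13 tested members rose and 5 separated the doses without overlap, while 4 of 17 were too low to test. Members nearly silent in controls, such as Mcpt4, Cpa3, Ear6 and Epx, passed the low-count filter through the exposed libraries. They could only be called higher, so the count of rises and the median of the list are partly set by the filter. The median log2 change of 5.69 is that of Prg2, and it is the same with Mcpt4, which had 0 control counts, at its lower bound. Prg2 (ENSMUSG00000027073), the major basic protein of eosinophils, ranged from 0 to 0.322 CPM with a median of 0.0859 in controls and from 0.565 to 16.2 CPM with a median of 4.28 in exposed livers (adjusted p = 2.06e-07). Epx, eosinophil peroxidase, ranged from 0 to 0.105 CPM with a median of 0.0136 and from 0.0858 to 6.91 CPM with a median of 1.69 (log2 change 6.66 ± 0.78), with 11 of 12 exposed libraries above every control. Among mast cell proteases, Mcpt4 had 0 counts over the controls and 657 over the exposed, at least 209.8-fold higher. Cpa3, mast cell carboxypeptidase, had 2 and 894 counts, a ratio of 428 with a 95% counting interval of 118 to 3541. These remain scarce transcripts: the whole list summed to a median of 16.4 CPM in exposed livers, and with a filter of 1 CPM in 6 libraries only 3 members could be tested, all of them higher.

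Genes of the B lineage split by stage. All 7 tested early B genes rose: Dntt and Rag1, which build antigen receptor genes, by 3.43 ± 0.46 and 2.38 ± 0.32, and Ebf1, the lineage factor, by 1.31 ± 0.19. The 9 listed early genes summed to a median of 1.15 CPM in controls, and members nearly silent there could only be called higher. Of 7 mature B genes 3 rose, 1 fell and 3 did not pass. Ighm, the heavy chain used by early and naive B cells, rose by 1.30 ± 0.15 (adjusted p = 1.40e-07), and Ighd, found on mature cells, changed by -0.68 ± 0.27 (adjusted p = 0.0495), a call lost when any of 16 libraries was left out. Of 12 T and NK cell genes 4 rose and 1 fell, 41.7% in all and close to the 42.4% of all tested genes. The granzyme gene Gzma rose by 1.99 ± 0.34, while the T cell receptor subunit Cd3e stood at 0.06 ± 0.25. Among 13 progenitor genes 9 rose, with Runx1 at 1.88 ± 0.18 and Cd34 at 0.85 ± 0.11, and the stem cell receptor gene Kit changed by -0.68 ± 0.14, a fall.

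Resident macrophage genes rose as well. Of 15 Kupffer cell and macrophage genes 12 rose, 1 fell and 2 did not pass, with a median log2 change of 0.48. Marco, a scavenger receptor, ranged from 4.12 to 9.50 CPM with a median of 6.35 in controls and from 13.7 to 40.1 CPM with a median of 31.4 in exposed livers (log2 change 2.25 ± 0.17, adjusted p = 4.79e-10) with no overlap. Clec4f, specific to Kupffer cells in the mouse, rose by 0.31 ± 0.06, Csf1r, the receptor for the macrophage growth factor, by 0.68 ± 0.07 and the complement genes C1qb and C1qc by 0.53 ± 0.05 and 0.54 ± 0.06. Spic, the factor of iron-recycling red pulp macrophages, rose by 1.07 ± 0.17. Of 7 antigen-presenting MHC class II genes only Cd74 (0.36 ± 0.07) and H2-DMb1 (0.40 ± 0.15) passed, the latter not in 4 of the other settings tried over both sexes. The count was 4 without control female replicate 38 or exposed female replicate 42, and 1 without control male replicate 33 or exposed male replicate 26.

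Promoters of the blood lineages were searched on either strand for the motif bound by GATA factors, in the form AGATAA. It was in 10 of 31 promoters of terminal erythroid genes (32.3%), 4 of 13 of megakaryocyte genes (30.8%) and 7 of 16 of eosinophil and mast cell genes (43.8%), against 11.2% of all promoters.

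Iron genes moved in opposing ways. Of 28 tested members 11 rose, 7 fell and 10 did not pass, where 23.2% of all tested genes rose and 19.2% fell. Hepcidin (Hamp) was too low to test, with 62 counts over the controls and 19 over the exposed. Its close relative Hamp2, with which reads may be shared, ranged from 0.0313 to 1.78 CPM with a median of 0.210 in controls and from 0 to 0.120 CPM with a median of 0.0270 in exposed livers (log2 change -2.70 ± 0.54, adjusted p = 0.000213), and 6 of 12 exposed libraries lay below every control. Bmp6 and Bmp2, the endothelial ligands that drive hepcidin in hepatocytes, changed by -1.01 ± 0.16 and -0.92 ± 0.14, both falls. Yet Id1, Smad7, Smad6 and Id3, targets of the same BMP pathway, rose by 1.13 ± 0.17, 0.65 ± 0.09, 0.56 ± 0.10 and 0.56 ± 0.10. Tmprss6, the protease that dampens this pathway, changed by -0.24 ± 0.06, a fall that did not pass when all 48 libraries were fitted together. Hfe, Hfe2 (hemojuvelin) and Atoh8 did not pass, at log2 changes of -0.06, -0.09 and 0.02.

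Iron uptake and carriage rose in part. Trf, plasma transferrin, ranged from 19286 to 24069 CPM with a median of 20809 in controls and from 22517 to 42319 CPM with a median of 34345 in exposed livers (log2 change 0.63 ± 0.09, adjusted p = 5.12e-06). Tfrc, the transferrin receptor, ranged from 109 to 301 CPM with a median of 205 and from 169 to 515 CPM with a median of 375 (log2 change 0.84 ± 0.17, adjusted p = 0.000428), with 10 of 12 exposed libraries above every control. Slc11a2, the iron transporter DMT1, which also carries cadmium, rose by 0.62 ± 0.10, and Ireb2 and Aco1, the iron regulatory proteins that hold Tfrc mRNA stable, changed by -0.35 ± 0.05 and -0.40 ± 0.06, both falls. Tfrc is expressed by red cell precursors as well as by hepatocytes, and erythroid membrane genes were higher in the same libraries; their part in the Tfrc rise was not tested. Hmox1, haem oxygenase, which frees iron from haem, rose from a median of 31.1 to 84.01 CPM (log2 change 1.23 ± 0.09, adjusted p = 2.14e-10) with no overlap. Ferritin chains Fth1 and Ftl1 rose by 0.24 ± 0.04 and 0.17 ± 0.04, the Fth1 call being lost with all 48 libraries in the fit (adjusted p = 0.0722), and ferroportin (Slc40a1) did not pass (0.16 ± 0.12).

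Beside Fgf23, the phosphate and vitamin D list held 2 rises, of Vdr, the vitamin D receptor (2.12 ± 0.33, medians 0.0622 and 0.323 CPM), and Galnt3 (0.94 ± 0.20), which glycosylates FGF23 and shields it from cleavage. Furin, the protease that cleaves FGF23, stood at 0.03 ± 0.04 (adjusted p = 0.644). The hydroxylase genes of vitamin D fell, with log2 changes of -0.56 for Cyp27a1, -0.53 for Cyp2r1 and -1.25 for Cyp27b1, the last only 0.165 CPM in controls and not past the threshold without control female replicate 45 (adjusted p = 0.0660). The bone genes Phex and Dmp1 and the hydroxylase gene Cyp24a1 were below the filter, at no more than 11 counts in either dose.

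Metallothioneins, the classic cadmium-induced genes, did not pass the test at day 21. Mt1 (ENSMUSG00000031765) ranged from 438 to 982 CPM with a median of 644 in controls and from 528 to 991 CPM with a median of 690.2 in exposed livers (log2 change 0.08 ± 0.12, adjusted p = 0.633). Mt2 ranged from 207 to 793 CPM with a median of 395 and from 337 to 959 CPM with a median of 505 (log2 change 0.28 ± 0.21, adjusted p = 0.324). The groups overlapped almost whole in both, and Mtf1, the metal-sensing factor that drives them, stood at -0.10 ± 0.08. At birth the same genes had changed by -1.81 ± 0.23 and -1.83 ± 0.24, falls in exposed pups, and the difference between the ages passed for both (Mt1 1.89 ± 0.26, adjusted p = 2.22e-07, and Mt2 2.10 ± 0.33, adjusted p = 3.73e-06).

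Of 23 tested metal transport genes 7 rose, 4 fell and 12 did not pass, where 23.2% of all tested genes rose and 19.2% fell. Females alone gave 3 rises and 2 falls. Slc39a5 (ENSMUSG00000039878), the zinc importer ZIP5, ranged from 0.980 to 3.06 CPM with a median of 1.84 in controls and from 4.51 to 13.5 CPM with a median of 10.4 in exposed livers (log2 change 2.27 ± 0.22, adjusted p = 1.01e-08), the only member of the list without overlap. Slc39a8, the ZIP8 carrier of zinc, manganese and cadmium, changed by -0.35 ± 0.05 (adjusted p = 3.22e-06), from a median of 33.5 to 26.7 CPM. Slc39a14, the ZIP14 carrier of the same metals, stood at 0.08 ± 0.10 (adjusted p = 0.560). Slc30a10, a manganese exporter, rose by 0.61 ± 0.15, and the zinc exporter Slc30a1, itself induced by zinc, stood at -0.10 ± 0.12. Copper genes split: the importer Slc31a1 changed by -0.36 ± 0.05 and the chaperone Ccs by -0.24 ± 0.07, both falls, while the exporter Atp7a rose by 1.01 ± 0.18 and its liver counterpart Atp7b stood at 0.07 ± 0.06. The call for Slc39a6 (0.22 ± 0.09, adjusted p = 0.0491) was lost in 23 of the other settings tried over both sexes.

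Imprinted growth genes rose, Plagl1 among them. Plagl1 (ENSMUSG00000019817) ranged from 1.69 to 3.53 CPM with a median of 2.96 in controls and from 2.85 to 7.62 CPM with a median of 4.38 in exposed livers (log2 change 0.76 ± 0.14, adjusted p = 7.76e-05), with 10 of 12 exposed libraries above every control. Of 21 tested members of the network 15 rose, 1 fell and 5 did not pass, with a median log2 change of 0.64. Among 10 tested members listed as growth-promoting 9 rose, and among the other 11 tested members 6 rose. H19, the maternally expressed noncoding RNA, ranged from 21.9 to 338 CPM with a median of 54.1 in controls and from 321 to 3896 CPM with a median of 1893 in exposed livers (log2 change 4.49 ± 0.45), and Igf2, the fetal growth factor of the same locus, from 0.0266 to 0.249 CPM with a median of 0.0788 and from 0.123 to 5.02 CPM with a median of 1.70. H19 thus reached a median of 0.189% of all counts in exposed livers, while Igf2 had a median of 1.70 CPM.

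Other members of the network rose with them. Dlk1, a Notch-like protein of hepatoblasts, rose from a median of 0.107 to 1.36 CPM (log2 change 3.85 ± 0.31, adjusted p = 5.01e-10) with no overlap. Mest, a hydrolase-like gene, rose by 1.67 ± 0.18, Peg10, a retrotransposon-derived gene, by 1.66 ± 0.15, and Grb10, which restrains insulin and IGF receptors, by 1.39 ± 0.16. Cdkn1c, the cell cycle inhibitor p57, rose by 0.84 ± 0.17 (medians 6.05 and 9.60 CPM), Peg3 by 0.64 ± 0.18 and Asb4 by 1.17 ± 0.14. Slc22a18 changed by -0.40 ± 0.08, the 1 fall. Gnas, Rian, Mirg, Ndn and Igf2r did not pass, with log2 changes from -0.31 to 0.27, and the Meg3 call (0.34 ± 0.13, adjusted p = 0.0435) was lost in 20 of the other settings tried over both sexes. Rtl1, Magel2 and Phlda2 were too low to test.

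Fetal hepatocyte genes rose in 11 of 14 tested cases, 5 without overlap, with a median log2 change of 0.83. Afp (ENSMUSG00000054932), alpha-fetoprotein, ranged from 6.49 to 31.4 CPM with a median of 8.64 in controls and from 28.1 to 514 CPM with a median of 109.9 in exposed livers (log2 change 3.76 ± 0.47, adjusted p = 1.23e-06). Sall4, a factor of hepatoblasts, rose from a median of 0.176 to 2.61 CPM (3.77 ± 0.20, adjusted p = 8.33e-13), Cd24a from 3.38 to 18.9 CPM and Igf2bp2, an mRNA-binding protein of fetal cells, from 7.27 to 15.6 CPM. The level stayed far under that of newborns: in control newborns, scaled over all 48 libraries, the median was 16259 CPM for Afp, 9.79 CPM for Sall4 and 12787 CPM for H19. Lin28b, Igf2bp1, Hmga2 and Trim71, markers of earlier fetal liver, were below the filter with at most 46 counts over either dose.

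Isozymes of fetal or other tissues rose. Of 13 such genes 12 rose, 6 without overlap, with a median log2 change of 1.02. Over all tested genes 23.2% rose, and 3.16% lay above the controls without overlap. Hk1, Hk2, Aldoa, Aldoc, Slc2a1 and Eno1 are also among the glycolytic HIF targets above, so their rises are counted in both lists. Pkm, the pyruvate kinase of fetal and muscle tissue, ranged from 20.7 to 30.5 CPM with a median of 23.2 in controls and from 48.02 to 94.05 CPM with a median of 64.8 in exposed livers (log2 change 1.44 ± 0.09, adjusted p = 1.48e-11). Slc2a3, the neuronal and blood cell glucose transporter, rose by 2.86 ± 0.21 and Pygb, brain glycogen phosphorylase, by 1.25 ± 0.12. Some of these genes are also expressed by blood cells, whose markers rose in the same livers; their part was not tested. The 10 adult liver counterparts had 4 rises, 3 falls and 3 not passed: Gls2, liver glutaminase, changed by -0.64 ± 0.07 and Mat1a by -0.35 ± 0.07 (1 fall, and no call for Mat1a, with all 48 libraries in the fit), while Slc2a2, the liver glucose transporter, rose by 0.56 ± 0.08. The pyruvate kinase of adult liver, Pklr, stood at -0.11 ± 0.19 (adjusted p = 0.694).

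**Figure D2:**
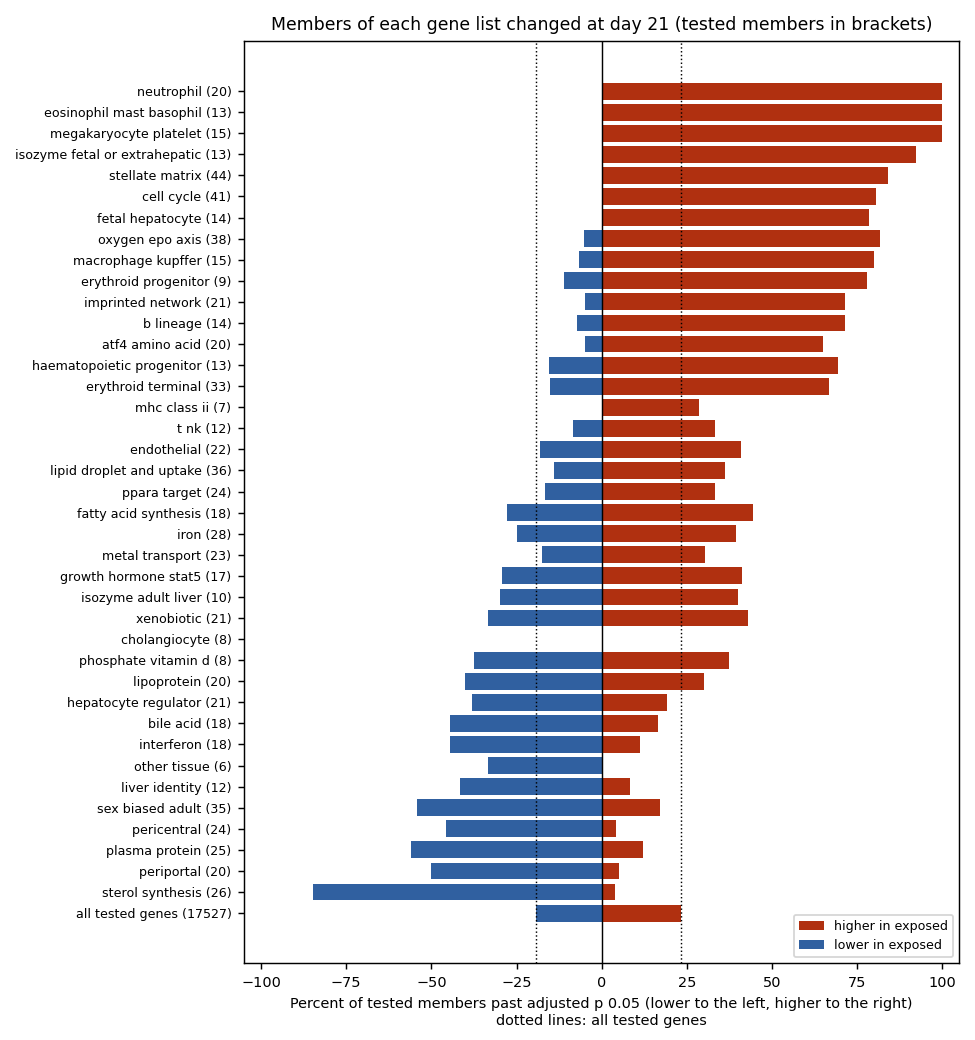
Percent of the tested members of each gene list that passed at day 21, rises to the right and falls to the left, with the number of tested members in brackets and dotted lines at the percentages over all tested genes (23.2% and 19.2%). Megakaryocyte, neutrophil, and eosinophil and mast cell lists lie at 100% to the right, and the sterol synthesis list has the longest bar to the left.

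The main hepatocyte products had small changes. Of 12 genes of liver identity Trf rose, 5 fell (3 with all 48 libraries in the fit) and 6 did not pass, and none of the falls exceeded that of Serpina1c (-0.60 ± 0.05), an antitrypsin gene with near-identical copies. Alb stood at -0.03 ± 0.04 (adjusted p = 0.647) and transthyretin (Ttr) at -0.05 ± 0.08. Among plasma proteins 14 of 25 fell and 3 rose, with a median log2 change of -0.21. The widest falls were those of 3 terminal complement genes: C9 fell from a median of 148 to 76.5 CPM (log2 change -1.07 ± 0.11, adjusted p = 2.88e-08), and C8b and C8a changed by -0.95 ± 0.12 and -0.70 ± 0.13. Of the same complex, C6 rose by 0.23 ± 0.08. Mbl1, a lectin of the complement system, changed by -0.47 ± 0.06 and antithrombin (Serpinc1) by -0.25 ± 0.03.

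Zonated enzymes fell at both ends of the lobule. Of 16 pericentral enzymes 10 fell, 5 without overlap, 1 rose (2 without control male replicate 33) and 5 did not pass, with a median log2 change of -0.58. Aldh1a1, a retinaldehyde dehydrogenase, ranged from 139 to 206 CPM with a median of 195 in controls and from 57.7 to 109 CPM with a median of 79.3 in exposed livers (log2 change -1.27 ± 0.08, adjusted p = 8.73e-12). Glul, glutamine synthetase of the innermost cells, fell from a median of 781 to 455 CPM (-0.79 ± 0.07), Oat, which feeds it, from 775 to 345 CPM (-1.13 ± 0.10) and the glutamate carrier Slc1a2 from 108 to 30.4 CPM (-1.91 ± 0.20). Slc13a3, a dicarboxylate carrier, rose by 1.55 ± 0.19. Of 8 Wnt target genes of the same zone only Notum passed (-0.32 ± 0.11), with Axin2 at -0.33 ± 0.21 and Lgr5 at -0.45 ± 0.28. On the endothelial side, the Wnt ligand gene Wnt2 changed by -0.71 ± 0.12, a fall, and the enhancer of Wnt signalling Rspo3 rose by 0.43 ± 0.05.

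Of 20 periportal genes 10 fell, 3 without overlap, 1 rose and 9 did not pass. With all 48 libraries in the fit 6 fell and 2 rose. The rises numbered 3 without exposed female replicate 41 and 2 without control female replicate 38, 40 or 43, exposed female replicate 42, or exposed male replicate 31, 35 or 36. Cyp2f2, a cytochrome of the portal zone, ranged from 578 to 911 CPM with a median of 755 in controls and from 133 to 444 CPM with a median of 264 in exposed livers (log2 change -1.46 ± 0.14, adjusted p = 8.91e-09). Ass1, of the urea cycle, changed by -0.47 ± 0.06 and the protease Ctsc by -0.61 ± 0.08, both falls, that of Ass1 not past the threshold with all 48 libraries in the fit (adjusted p = 0.0588). Cps1, the entry enzyme of the urea cycle, and the gluconeogenic genes Pck1 and G6pc stood at 0.10 ± 0.06, 0.05 ± 0.18 and 0.36 ± 0.28, none of them past the threshold. The summed level of pericentral genes ranged from 9989 to 15046 CPM with a median of 11290.0 in controls and from 5573 to 9245 CPM with a median of 7252 in exposed livers, and that of periportal genes from 28982 to 35288 CPM with a median of 30794 and from 25863 to 33859 CPM with a median of 29357.

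Hepatocyte regulators gave 4 rises, 8 falls and 9 not passed of 21, where 23.2% of all tested genes rose and 19.2% fell. Onecut1 (HNF6) ranged from 4.78 to 69.8 CPM with a median of 18.6 in controls and from 2.03 to 11.05 CPM with a median of 6.16 in exposed livers (log2 change -1.998 ± 0.41, adjusted p = 0.000379), whereas its relative Onecut2 rose by 0.61 ± 0.09. Foxa1, a pioneer factor, changed by -0.85 ± 0.15, Cebpa by -0.58 ± 0.12 and the xenobiotic receptor CAR (Nr1i3) by -0.64 ± 0.10, all falls. Hnf4a, the central hepatocyte factor, stood at -0.17 ± 0.09 (adjusted p = 0.142) and Ppara at -0.11 ± 0.10. Cux2, a female-specific factor of adult liver, rose by 1.03 ± 0.35.

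Genes with a male bias in adult liver were lower in exposed pups. Of 17 tested male-biased genes 14 fell and 3 did not pass, with a median log2 change of -1.55, and of 18 female-biased genes 6 rose, 5 fell and 7 did not pass. Mup3 ranged from 25.2 to 750.2 CPM with a median of 113 in controls and from 7.73 to 42.2 CPM with a median of 22.2 in exposed livers (log2 change -2.86 ± 0.38, adjusted p = 2.68e-06), Mup2 from 0.249 to 3.89 CPM with a median of 1.81 and from 0 to 0.391 CPM with a median of 0.0742, and Mup21 changed by -3.08 ± 0.32. Mup22 had 2079 counts over the controls and 2 over the exposed, a control-to-exposed ratio of 1085 with a 95% counting interval of 300.1 to 8968. All 8 tested major urinary protein genes of 22 in the table fell. Members nearly absent from exposed livers, such as Mup10, Mup22, Mup17 and Mup5, passed the low-count filter through the control libraries. They could only be called lower, and Mup17 is also 1 of the 14 male-biased falls. Major urinary proteins are pheromone carriers with near-identical genes, and reads may be split among them. Mup genes took up a median of 0.0120% of counts in control livers, with a range from 0.00283% to 0.0822%, and 0.00232% in exposed livers. Control male replicate 32 held the highest level of the sex-biased list in its group.

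Outside the Mup family, Cyp7b1, an oxysterol hydroxylase, fell from a median of 26.7 to 8.14 CPM (log2 change -1.83 ± 0.16, adjusted p = 3.55e-09) with no overlap, and the organic anion carrier Slco1a1 from 39.9 to 11.3 CPM. Among female-biased genes the directions diverged: Cyp3a41a, Cyp3a44 and Cyp3a16, cytochromes of young and female mice, rose by 1.83 ± 0.28, 2.08 ± 0.24 and 1.91 ± 0.28, while Sult3a1 (log2 change -6.67 ± 0.67) fell without overlap. Of 17 genes of growth hormone signalling 7 rose and 5 fell, beside 23.2% and 19.2% of all tested genes. Igfbp2, an IGF carrier of early life, ranged from 368 to 731 CPM with a median of 476 in controls and from 951 to 1877 CPM with a median of 1348 in exposed livers (log2 change 1.44 ± 0.11), and Igfbp3 rose by 0.98 ± 0.07 (adjusted p = 4.21e-11). Igf1 stood at -0.23 ± 0.14 (adjusted p = 0.200), the receptor Ghr at -0.18 ± 0.11, and Igfals, the third part of the circulating IGF complex, changed by -0.96 ± 0.21, a fall. The feedback gene Socs2 changed by -0.84 ± 0.25, and Stat5a and Stat5b rose by 0.74 ± 0.10 and 0.39 ± 0.11. The STAT5 motif TTCNNNGAA was in 4 of 22 promoters of the growth hormone list (18.2%) and in 0 of 11 promoters of the male-biased list, against 8.30% of all promoters.

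**Figure D3:**
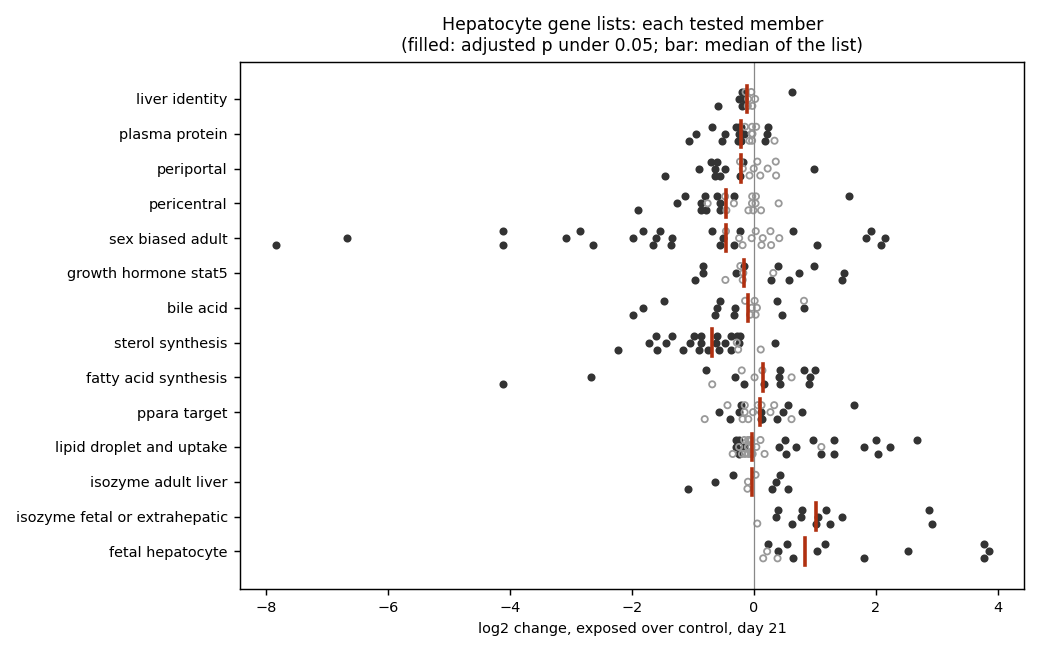
Log2 change at day 21 (horizontal axis, exposed over control) of every tested member of 14 hepatocyte gene lists (rows), filled where the adjusted p is under 0.05, with a bar at the list's median. Most points of the sterol synthesis list lie left of 0 with the bar at -0.69, and those of the fetal hepatocyte and fetal or extrahepatic isozyme lists lie right of it, with bars at 0.83 and 1.02.

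Most sterol synthesis genes fell. Of 26 tested genes 22 fell, 8 of them with all exposed libraries below all controls (1.38% of all tested genes), 1 rose and 3 did not pass, and the median log2 change was -0.69. Idi1, isopentenyl diphosphate isomerase, ranged from 1.90 to 5.83 CPM with a median of 2.66 in controls and from 0.287 to 1.34 CPM with a median of 0.589 in exposed livers (log2 change -2.23 ± 0.22, adjusted p = 1.40e-08). Tm7sf2, a sterol reductase, fell from a median of 54.7 to 19.3 CPM (-1.44 ± 0.12, adjusted p = 1.12e-09), Cyp51, lanosterol demethylase, from 12.4 to 4.30 CPM (-1.72 ± 0.17) and Ebp, a sterol isomerase, from 155 to 102 CPM (-0.62 ± 0.05).

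Hmgcs1, an entry enzyme, changed by -0.25 ± 0.08 (adjusted p = 0.0146). Srebf2, the factor that drives the pathway, changed by -0.48 ± 0.06 and Insig1, its sterol-sensing anchor, by -0.75 ± 0.12, both falls, while the escort protein gene Scap rose by 0.35 ± 0.06. The late pathway had 10 falls of 11 with a median log2 change of -0.87, and the early pathway 7 of 9 with -0.39. The sterol response element TCACNCCAC, searched on both strands, was in 1 of 23 promoters of the list (4.35%) against 1.24% of all promoters, and the NF-Y motif ATTGG in 17 of 23 (73.9%) against 37.4%. The 1 promoter with the sterol element was that of Hmgcs1, shown over 100 bases at chr13:119690168-119690267 (+ strand, GRCm38.p6, RefSeq), which end 84 bases before the start, with the element in capitals.
Hmgcs1: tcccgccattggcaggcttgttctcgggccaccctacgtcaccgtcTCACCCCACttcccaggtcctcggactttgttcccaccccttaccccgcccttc
An ATTGG lies near the 5′ end of this window, in lower case.

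Bile acid genes fell in 8 of 18 cases and rose in 3, where 19.2% of all tested genes fell and 23.2% rose. Cyp7a1, the rate-limiting enzyme, ranged from 41.9 to 402 CPM with a median of 145 in controls and from 10.7 to 157 CPM with a median of 39.8 in exposed livers (log2 change -1.48 ± 0.44, adjusted p = 0.00883), and the groups overlapped. The conjugation genes Slc27a5 and Baat changed by -0.64 ± 0.06 and -0.60 ± 0.09 and the uptake carrier Slc10a1 by -0.33 ± 0.05, all falls. Abcb4, the phospholipid exporter of bile, rose by 0.46 ± 0.10, and the bile salt pump Abcb11 stood at -0.15 ± 0.08 (adjusted p = 0.171).

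Several genes of fatty acid uptake rose. Of 13 uptake and carrier genes 7 rose, 5 without overlap, and 1 fell. Cd36, the fatty acid translocase, ranged from 30.8 to 50.5 CPM with a median of 41.5 in controls and from 69.4 to 115 CPM with a median of 86.5 in exposed livers (log2 change 1.10 ± 0.08, adjusted p = 7.18e-11). Fabp4, the fatty acid carrier of fat cells, macrophages and capillaries, rose from a median of 19.9 to 76.1 CPM (1.99 ± 0.13), Fabp5 from 16.5 to 67.8 CPM and Pparg, the factor of fat storage, from 3.78 to 8.47 CPM (1.32 ± 0.14). Lpl, lipoprotein lipase, rose by 0.97 ± 0.12. Fat cell markers (Adipoq, Plin1, Cfd, Lep, Retn) summed to medians of 0.0125 and 0.0304 CPM and to at most 1.35 CPM in an exposed library, and macrophage genes were higher in the same livers; their part was not tested.

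Of 23 genes of droplet coats and triglyceride turnover 6 rose, 4 fell and 13 did not pass, with a median log2 change of -0.05. In all 43.5% of them passed, close to the 42.4% of all tested genes, of which 23.2% rose and 19.2% fell. Plin2, the main droplet coat of hepatocytes, ranged from 282 to 1490.0 CPM with a median of 610.2 in controls and from 317 to 1300.3 CPM with a median of 634 in exposed livers (log2 change 0.17 ± 0.28, adjusted p = 0.671). Cidec, which enlarges droplets, rose by 1.32 ± 0.33 (adjusted p = 0.00226), and Cidea, at most 0.294 CPM, by 2.23 ± 0.51. The triglyceride-making genes Dgat1 and Dgat2 stood at -0.04 ± 0.07 and -0.06 ± 0.06, and the lipase gene Pnpla2 at -0.09 ± 0.18. Fatty acid synthesis split too, with 8 rises and 5 falls of 18 (3 falls with all 48 libraries in the fit): Acaca rose by 0.81 ± 0.17, Elovl6 by 0.99 ± 0.25 and Scd2 by 0.92 ± 0.14, whereas Scd1, Elovl3 and Fads1 (-0.79 ± 0.07) fell and Fasn stood at 0.14 ± 0.09 (adjusted p = 0.213).

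Among 20 lipoprotein genes 6 rose and 8 fell, beside 23.2% and 19.2% of all tested genes. The falls numbered 4 with all 48 libraries in the fit and 4 in each sex alone. Apoa4 (ENSMUSG00000032080), an apolipoprotein of chylomicrons that liver makes as well, ranged from 301 to 879.6 CPM with a median of 494 in controls and from 2025 to 7981 CPM with a median of 3851 in exposed livers (log2 change 2.96 ± 0.21, adjusted p = 1.77e-10), the largest rise of the list. The cholesterol exporter Abcg1 rose by 0.92 ± 0.13, and Creb3l3, a factor that drives Apoa4 and other lipid genes, changed by -0.42 ± 0.06, a fall. Apob changed by -0.16 ± 0.04, a fall, and Mttp, which loads it with lipid, stood at -0.001 ± 0.06. PPARA targets gave 8 rises, 4 falls and 12 not passed of 24 (7 falls without control male replicate 28, exposed female replicate 48 or exposed male replicate 31; 2 rises with all 48 libraries in the fit; 2 rises and 1 fall in males alone), with no gene past an absolute log2 change of 1 except Pdk4 (1.64 ± 0.47, adjusted p = 0.00730). The ketone body enzyme gene Bdh1 rose by 0.55 ± 0.11 (adjusted p = 0.000327), a call lost with all 48 libraries in the fit (adjusted p = 0.0541).

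Cell cycle genes were higher. Of 41 tested genes 33 rose, 0 fell (2 by limma-voom and 2 without exposed male replicate 26) and 8 did not pass, with a median log2 change of 0.93, and all 16 genes of G2 and mitosis rose (median 1.25). Rrm2, the inducible subunit of ribonucleotide reductase, ranged from 7.37 to 17.5 CPM with a median of 10.8 in controls and from 24.01 to 81.9 CPM with a median of 43.6 in exposed livers (log2 change 2.04 ± 0.17, adjusted p = 1.41e-09). Mki67, a marker of dividing cells, rose from a median of 10.8 to 33.2 CPM (1.49 ± 0.22) and Ccnd1, cyclin D1, from 17.4 to 55.8 CPM (1.63 ± 0.18). The inhibitors Btg2 and Cdkn1c rose by 2.58 ± 0.27 and 0.84 ± 0.17, while Cdkn1a (p21) stood at 0.36 ± 0.15 (adjusted p = 0.0517) and the replication clamp gene Pcna at 0.01 ± 0.06. Which cells divide cannot be read from these libraries: hepatocytes and blood precursors both use these genes, and erythroid and neutrophil genes were higher in the same livers; their part was not tested. ATTGG was in 26 of 37 promoters of the list (70.3%) against 37.4% of all promoters.

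Matrix genes rose broadly. Of 44 tested genes of stellate cells and matrix 37 rose, 15 without overlap, 0 fell and 7 did not pass, with a median log2 change of 0.64. All 12 collagen genes rose: Col5a2 ranged from 21.4 to 33.6 CPM with a median of 25.6 in controls and from 43.02 to 75.1 CPM with a median of 58.9 in exposed livers (log2 change 1.15 ± 0.09, adjusted p = 2.73e-10), Col3a1 rose by 0.77 ± 0.08 and Col1a1 by 0.83 ± 0.12. Postn (periostin) rose from a median of 37.3 to 105.2 CPM, the crosslinker Loxl2 from 9.61 to 30.2 CPM and Rgs5, a gene of pericytes, from 41.7 to 136 CPM. Acta2, the actin of activated stellate cells, rose by 1.23 ± 0.15 and Tgfb1 by 0.91 ± 0.10. The stellate cell markers Lrat and Des stood at 0.17 ± 0.14 and 0.13 ± 0.08, and Ccn2, a TGF-beta target, at -0.18 ± 0.24. Collagen genes took up a median of 0.266% of counts in control and 0.331% in exposed livers, with no overlap between the ranges of 0.240% to 0.278% and 0.286% to 0.397%.

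Endothelial genes moved singly, with 9 rises, 4 falls and 9 not passed of 22. Over all tested genes 23.2% rose and 19.2% fell. Pecam1 and Tie1, found on all endothelium, rose by 0.61 ± 0.07 and 0.51 ± 0.06 without overlap. Apln, the peptide apelin of sprouting vessels, ranged from 0 to 0.345 CPM with a median of 0.0700 in controls and from 0.229 to 3.04 CPM with a median of 1.87 in exposed livers (log2 change 3.99 ± 0.46), and its receptor Aplnr rose by 1.94 ± 0.27. The sinusoidal genes Lyve1 and Clec4g changed by -0.86 ± 0.19 and -0.69 ± 0.10, both falls, and Stab2 rose by 0.63 ± 0.08. No bile duct gene passed of 8 tested, with Krt19 at -0.07 ± 0.13 and Epcam at -0.002 ± 0.13, by edgeR, and 0 had an unadjusted p under 0.05. In 4 other settings 1 gene passed: no low-count filter, all 48 libraries fitted, limma-voom, and without exposed female replicate 41. Cyp11a1, the first enzyme of steroid synthesis, had 1 count over the controls and 127 over the exposed (ratio 122, 95% counting interval 21.4 to 4842), while the adrenal enzymes Cyp11b1 and Cyp11b2 had 0 counts in both doses.

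Stress responses were partial. Over all tested genes 23.2% rose and 19.2% fell. Of 20 tested genes of amino acid stress and ATF4 13 rose and 1 fell, with a median log2 change of 0.80. Gdf15, a secreted stress factor, ranged from 0.462 to 5.08 CPM with a median of 1.09 in controls and from 2.08 to 16.3 CPM with a median of 5.47 in exposed livers (log2 change 2.31 ± 0.46, adjusted p = 0.000323), and Trib3, Asns and Shmt2 rose by 0.85 ± 0.12, 1.08 ± 0.15 and 0.67 ± 0.07. Atf4, Ddit3 and Chac1 did not pass, at log2 changes of 0.02, 0.33 and 0.79. Among 21 genes of xenobiotic and oxidative response 9 rose and 7 fell (4 and 4 with all 48 libraries in the fit or in females alone): Tiparp rose by 1.21 ± 0.15, Nqo1 changed by -0.46 ± 0.09 and Gstm1 by -0.98 ± 0.12. Of 18 interferon genes 8 fell and 2 rose, with Ifit3b at -1.05 ± 0.17 and Usp18, which quenches interferon signalling, at 1.84 ± 0.20. Each sex alone gave 5 falls and 1 rise. The rises also numbered 1 with all 48 libraries in the fit and without control female replicate 37 or 45, control male replicate 25, 27 or 32, exposed female replicate 46 or 47, or exposed male replicate 26, 30 or 35.

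The sexes did not differ detectably in the size of the effect. Of 17527 genes 0 passed the test of the difference by edgeR, with 860 at an unadjusted p under 0.05, and DESeq2 called 1 gene. The smallest p belonged to Ism2, at a log2 change of -0.98 ± 0.35 in females and 1.55 ± 0.37 in males (difference 2.53 ± 0.51, adjusted p = 0.676), followed by Xlr (difference 1.66 ± 0.39). Plagl1 rose by 0.61 ± 0.20 in females and 0.91 ± 0.20 in males, Epo by 5.71 ± 0.78 and 8.19 ± 1.07, Fgf23 by 6.05 ± 0.87 and 8.58 ± 1.08, and Idi1 changed by -2.15 ± 0.32 and -2.32 ± 0.32.

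The effect at day 21 was set against that at birth, with all 48 libraries in 1 fit. Of 19811 genes tested, the effect differed between the ages in 5294 (26.7%), being higher at day 21 in 3315 (16.7%) and lower in 1979 (9.99%). At birth alone 666 of 19084 genes (3.49%) passed, 404 (2.12%) with rises and 262 (1.37%) with falls. One newborn control male library (replicate 3) has day 21 in its age label but day 0 in title and source; without it 3320 and 1955 genes differed. Among genes averaging at least 2 CPM in the highest of the 4 age and dose groups, predicted and clone names left out, the widest differences upward were in Adm2 (9.54 ± 1.05 log2 units), Epx (6.997 ± 0.84), Myo16, an unconventional myosin (6.49 ± 1.28), Prg2 (5.79 ± 0.69) and Fcnb, a ficolin of myeloid cells (5.65 ± 0.49). Adm2 had 0 counts in the day 21 controls, so its value depends on the fit, as do those of Mup10 and Mup22 below.

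Most lineage and growth genes that rose at day 21 had not passed at birth. All 20 neutrophil and all 15 megakaryocyte genes differed, as did 11 of 12 erythroid membrane genes, and at birth edgeR called 0 of these 47 genes, with 8 at an unadjusted p under 0.05. For Mpo the newborn control median was 383 CPM on the scale of 48 libraries, and for Rhag 50.95 CPM, so day 21 exposed livers held less of both than newborn control livers did. Of 14 glycolytic HIF targets, in contrast, 9 rose at birth as well, and the effect differed between ages in 8, with 6 larger at day 21 and 2 larger at birth. Egln3 rose at both ages (1.44 ± 0.20 at birth, difference 0.03 ± 0.24, adjusted p = 0.951). Epo changed by 2.76 ± 0.55 at birth (adjusted p = 0.00613) and the difference was 4.03 ± 1.17 (adjusted p = 0.00796).

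For Plagl1 the effect at birth was 0.21 ± 0.08 (adjusted p = 0.142) and the difference between ages 0.55 ± 0.16 (adjusted p = 0.00721). Of 21 tested imprinted genes 0 passed at birth by edgeR, with 4 at an unadjusted p under 0.05, and 13 differed, all with the higher effect at day 21. Of 26 sterol genes 0 passed at birth by edgeR, with 4 at an unadjusted p under 0.05, and 19 had a lower effect at day 21. Hamp2 had already changed at birth by -4.21 ± 0.61 (adjusted p = 0.000268), and its difference did not pass (1.54 ± 1.12, adjusted p = 0.335). By the same rule the widest differences downward were those of Mup10 (-10.32 ± 3.09), Mup22 (-9.99 ± 3.06), Mup17 (-7.36 ± 1.79), Sult3a1 (-6.12 ± 1.06) and Mup21 (-4.03 ± 0.85); Mup genes were nearly absent from newborn livers, and Mup10 had 0 CPM on average in exposed livers at day 21.

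**Figure D4:**
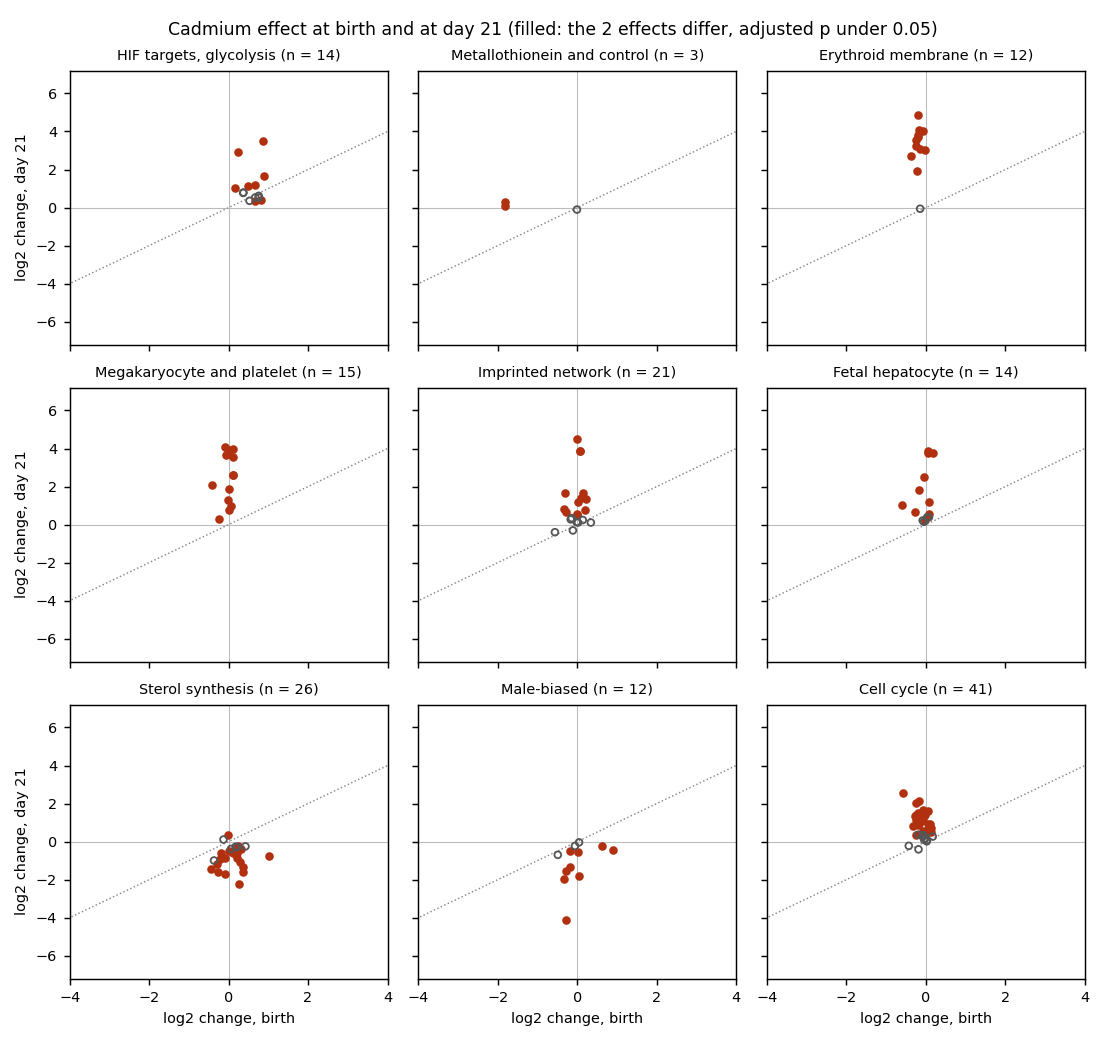
Log2 change with cadmium at birth (horizontal axis) and at day 21 (vertical axis) for the members of 9 gene lists tested at both ages, filled where the effects differ at an adjusted p under 0.05 (dotted line: equal effects). Megakaryocyte genes and all but 1 erythroid membrane gene lie near 0 at birth and above it at day 21, glycolytic HIF targets lie above 0 at both ages, and Mt1 and Mt2 lie below 0 at birth and not at day 21.

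Across the 12 exposed livers, 10 relations between levels were computed as correlations of mean log2(CPM + 0.5), with permutation p-values adjusted over the 10. Levels of terminal erythroid genes followed those of megakaryocyte genes (r = 0.70, adjusted p = 0.0401, rho = 0.78, adjusted p = 0.0188; r = 0.83 without the 2 livers farthest from the median). They also followed eosinophil and mast cell genes (r = 0.74, adjusted p = 0.0348, rho = 0.80, adjusted p = 0.0188; r = 0.73 without those 2, adjusted p = 0.0866). Within the sexes, by exact permutation tests, the first relation was 0.84 in 6 females (p = 0.0194) and 0.79 in 6 males (p = 0.0889), and the second 0.92 (p = 0.0153) and 0.76 (p = 0.0819). Epo did not track the erythroid genes detectably (r = 0.21, adjusted p = 0.520; rho = 0.31, adjusted p = 0.370). Its relations with glycolytic HIF targets (r = 0.60), megakaryocyte genes (r = 0.59) and H19 (r = 0.62) each had an adjusted p of 0.0713 and were 0.20, 0.51 and 0.33 without the 2 farthest livers; rho was 0.48 (adjusted p = 0.166), 0.62 (0.0710) and 0.73 (0.0280). Within the sexes the 4 relations of Epo gave r from 0.26 to 0.73, with exact permutation p from 0.0986 to 0.589.

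Plagl1 followed the mean of the other 20 imprinted genes (r = 0.73, adjusted p = 0.0348; rho = 0.71, adjusted p = 0.0326), with r = 0.68 (adjusted p = 0.0987) without the 2 farthest livers. In 6 males r was 0.91 (exact permutation p = 0.0153) and in 6 females 0.58 (p = 0.257). Its relation with lipid droplet and uptake genes was -0.53 (adjusted p = 0.112; rho -0.56, adjusted p = 0.104; -0.33 without the 2). In males alone that r was -0.85 (exact permutation p = 0.0111) and in females alone -0.42 (p = 0.4125). H19 related to pericentral genes at -0.48 (adjusted p = 0.140; rho -0.36, adjusted p = 0.310; 0.24 without the 2) and to sterol genes at -0.22 (adjusted p = 0.520; rho -0.22, adjusted p = 0.489; 0.44 without the 2), so the sign of both rests on those livers. Within females and males the first was -0.57 and -0.54 and the second -0.17 and -0.52 (exact permutation p from 0.2375 to 0.825).

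**Figure D5:**
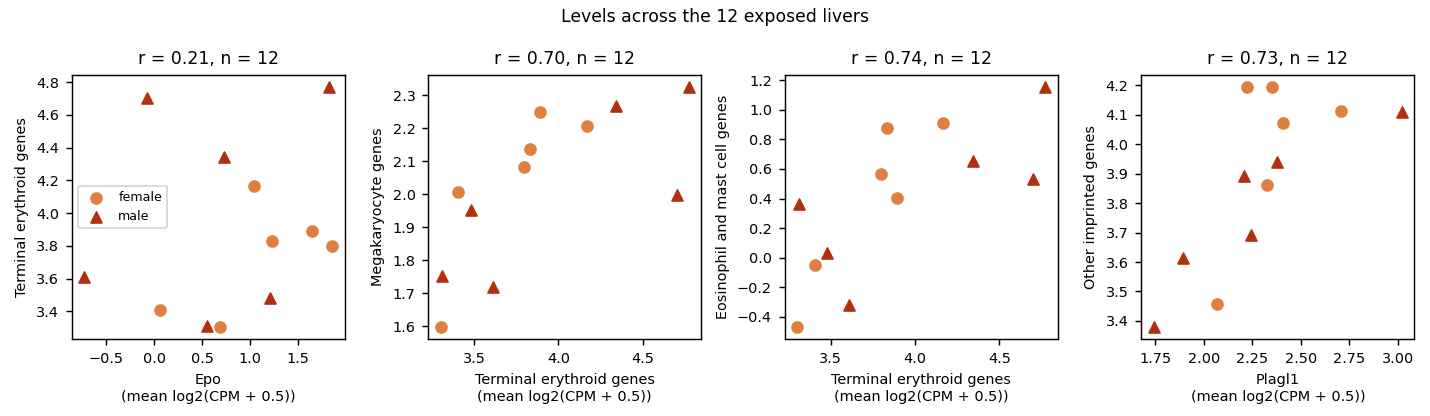
Levels in the 12 exposed livers, each point 1 pup (circles: females, triangles: males), as log2(CPM + 0.5) of a gene or its mean over a list. Terminal erythroid genes rise with megakaryocyte and with eosinophil and mast cell genes (r = 0.70 and 0.74) and not with Epo (r = 0.21), and Plagl1 rises with the other imprinted genes (r = 0.73).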

How the data were processed

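Whole-liver RNA was sequenced from directional libraries, per the labels' protocols. The authors deposited 1 table of raw read counts per gene for 55487 genes. The submitters' processing notes name the tools FastQC, STAR, HTSeq and DESeq2, and the deposited values are raw counts. Tool versions, genome build, gene annotation and the strandedness used in counting: not given in the sources used here. Rows without a symbol (346) held 0.0391% of counts. Groups come from the titles. Not analysed here was the 1 ppm dose.

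Genes were filtered with filterByExpr, scaled with TMM and tested with edgeR 4.0.16 (R 4.3.3), by the quasi-likelihood F-test with sex as a covariate and Benjamini-Hochberg adjustment over all tested genes at 0.05. Fits with a sex or age interaction gave the differences. On simulated data (17320 genes, 200 changed), 76.12% of 1.5-fold and 97.01% of 2-fold changes were recovered. The changed genes were drawn from those averaging over 1 CPM, so these shares do not cover scarcer transcripts such as Epo. The simulation changed a far smaller share of genes than the 42.4% that passed in these livers, with rises and falls balanced. The shares therefore describe that setting and not the sensitivity of the reported test. DESeq2 1.42.0, limma 3.58.1 (voom), another scaling, other filters, each sex alone, all 48 libraries and each library left out were alternatives.

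The gene lists (818 genes) and the comparison were chosen with earlier results of these data known. Named were all members of the oxygen, iron, phosphate, metal and imprinted lists that the text turns on, up to 4 members with the smallest p of other lists, and the largest changes. Further genes were named for their role after their values were seen. Promoters came from RefSeq (GRCm38.p6), matched by symbol. A group total of 0 was set to 3 counts for lower bounds. Intervals on counts are exact at 95% and cover counting error only.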

Additional observations from a re-analysis of the deposited data

Results flagged for a closer look

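In 240 checks (60 levels in 4 groups of 6 pups), 13 had a library far from the rest of its group; chance flags about 1 in 20. Levels are log2(CPM + 0.5), or their mean over a list. Among controls, Epo stood highest in male replicate 34 at -0.96, where the other 5 had 0 CPM. Female replicate 40 held the highest Fgf23 (2.36) and Rhag (-0.24) of its group. Female replicate 38 held the highest Epx (-0.73), the lowest Mup2 (-0.42) and the lowest mean of plasma protein genes (8.18). Female replicate 37 had the lowest mean of endothelial genes (3.79), and male replicate 32 the highest mean of sex-biased genes (5.20) and the lowest of xenobiotic genes (4.96). Among exposed livers, male replicate 29 had the highest Sult3a1 (-0.56), male replicate 35 the highest Mup2 (-0.17), male replicate 26 the lowest Mup3 (3.04) and female replicate 41 the lowest mean of megakaryocyte genes (1.60).

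The effect of cadmium differed between day 21 and birth, by edgeR's interaction test, in each of the following genes (day 21 minus birth, log2 units). It was higher at day 21 for Adm2 (9.54, adjusted p = 1.78e-08), Epx (6.997, adjusted p = 1.95e-08), Myo16 (6.49, adjusted p = 0.000130), Prg2 (5.79, adjusted p = 1.78e-08) and Fcnb (5.65, adjusted p = 5.78e-12). The same held for Epo (4.03, adjusted p = 0.00796), Mt2 (2.10, adjusted p = 3.73e-06), Mt1 (1.89, adjusted p = 2.22e-07) and Plagl1 (0.55, adjusted p = 0.00721). It was lower for Mup10 (-10.32, adjusted p = 0.0144), Mup22 (-9.99, adjusted p = 0.0148), Mup17 (-7.36, adjusted p = 0.00177), Sult3a1 (-6.12, adjusted p = 1.86e-05) and Mup21 (-4.03, adjusted p = 0.000301).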

How the results depend on the processing

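Females alone gave 2678 rises and 1918 falls (16549 genes tested) and males alone 2579 and 1544 (16717 tested), with 12 libraries each. Leaving out each library in turn gave 3838 to 4178 rises and 3138 to 3824 falls. DESeq2 gave 4059 and 3851, limma-voom 4201 and 3773, and a filter of 1 CPM in 6 libraries 3428 and 3018 of 13365. DESeq2 called 1 gene for the difference between the sexes. Without the 2 farthest livers the relation of erythroid with eosinophil genes was 0.733 (adjusted p = 0.0866) and that of Plagl1 with other imprinted genes 0.675 (adjusted p = 0.0987); the cause was not tested. Of 248 named genes 14 lost their call with all 48 libraries in the fit, 12 of 240 in females alone and 22 of 241 in males alone, and no gene that passed changed direction in any setting; of those that did not pass, Epas1, Atoh8 and Slc30a5 lay on either side of 0 among settings over both sexes, and others, Mt1 and Hfe among them, did so in a single sex. No paired analysis was possible because replicate numbers are not shared between groups. Litters are not given, so spread between litters could not be measured.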

Other observations

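Detoxification families moved in both directions at day 21. Of 21 tested glutathione S-transferase genes (Gst), 14 fell, 1 rose and 6 did not pass, with a median log2 change of -0.38, and in 5 all exposed libraries lay below all controls. Of 18 UDP-glucuronosyltransferase genes (Ugt), which couple bilirubin, steroids and drugs to glucuronic acid, 12 fell and 1 rose (median -0.60). Of 9 Cyp3a genes, by contrast, 7 rose and 1 fell (median 1.51), and of 13 Cyp2c genes 1 rose and 6 fell. Of 15 sulfotransferase genes (Sult) 2 rose and 7 fell. Among 22 Serpina genes, which encode protease inhibitors of plasma, 7 rose and 11 fell. Over all tested genes 23.2% rose and 19.2% fell. Members of these families can share reads.

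Livers of exposed pups varied more among themselves than controls did in most genes. Over 11866 genes at 2 CPM or more, the median standard deviation within a sex was 0.153 log2 units in control and 0.185 in exposed livers, and it was larger in the exposed in 67.3% of genes. Among genes that did not pass the test, it was larger in the exposed in 63.1%. Mitochondrially encoded genes took up a median of 4.21% of counts in control and 4.70% in exposed livers.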
